A study of Mus musculus with 30 samples.

Results

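The genes of fatty acid oxidation were followed by RNA-seq in BM and in adipose tissue macrophages (ATMs) of mice that carried leukemia-prone *Shp2*E76K/+ blood cells. The members were a fixed list of 31 genes that bring fatty acids to the mitochondrion or peroxisome, shorten them there, pass on their electrons or regulate the pathway. All 31 had a row among the 17059 genes of the ATM table and 30 had a row among the 13353 genes of the BM table, and *Ppara* was not analysed in BM here. Every member with a row passed the filter on low counts, which removed 0 genes. WT or leptin-deficient Ob/Ob mice on the C57BL/6J background were irradiated with 700 and 400 cGy and given 500000 BM cells from CD45.2+ *Shp2*E76K/+;*LysM*-Cre+ donors with 500000 CD45.1+ Boy/J competitor cells. From 8 weeks after the transplant the Ob/Ob recipients received, for 30 days, vehicle (the Vehicle group), the GLP-1R agonist beinaglutide at 3 mg/kg, an anti–IL-17A antibody at 200 µg per mouse 3 times a week, or both agents (the Combo group), while the WT recipients (the WT group) received none of these. The labels describe the animals as of both sexes and 12 to 14 weeks old, without naming the step at which they had that age. Each of the 5 groups had 3 libraries of whole BM cells and 3 of F4/80+ cells sorted from visceral fat, so 30 libraries in all. *LysM*-Cre switches the mutant allele on in myeloid cells, a library can hold progeny of donor and competitor cells beside cells of the host, and the labels do not name the donor of each library. The study's own accounts of the ATM comparison differ. One figure legend names Ob/Ob mice given mutant or WT donor cells, and another names WT and Ob/Ob mice that both carried mutant cells. Whether Vehicle vs WT of ATMs differs in the recipient's genotype, the donor's or both cannot be told from them.

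As background, a fatty acid is first joined to coenzyme A by an acyl-CoA synthetase, then moved into the mitochondrion by the carnitine shuttle, in which *Cpt1a* makes acylcarnitine at the outer membrane, *Slc25a20* carries it across the inner membrane and *Cpt2* restores the acyl-CoA. In the matrix each turn of the β-oxidation spiral runs through an acyl-CoA dehydrogenase, a hydratase, a 3-hydroxyacyl-CoA dehydrogenase and a thiolase, with the electron transfer flavoprotein taking electrons from the first step to the respiratory chain. Peroxisomes run a related spiral on very long and branched chains. Oxidation of fatty acids is known to be prominent in macrophages of the alternatively activated kind and is governed in many tissues by PPARα and its coactivators.

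The regions before the start sites are shown for 3 members with a nuclear receptor half-site and for a pair of members that share 1 interval, with motifs of the nuclear receptors known to act on this pathway. RefSeq (GRCm38.p6, the build called mm10 in the submitters' processing notes) gave a window for 26 of the 31 members. In the 250 bases before the start, searched on both strands, the nuclear receptor half-site AGGTCA was present in 4 of the 26 members (*Cpt1a*, *Acadvl*, *Acadm* and *Echs1*) and in 14% of all 32851 windows. The exact letters AGGTCANAGGTCA of a PPAR response element, which hold 2 copies of that half-site, were present in none of the 26 and in 0.0335% of all windows. Those of an ERR response element, TCAAGGTCA, which also hold it, were present in none and in 0.387%. Letters this rare over all windows would hardly be met among 26 members, so their absence does not show that these genes lack such elements. The stretches printed here hold no GENCODE M21 exon of any gene, run 5′ to 3′ on the gene's strand, and have the half-site (or its reverse complement TGACCT) in capitals. The *Cpt1a* stretch lies inside the annotated gene and outside its exons (chr19:3323051-3323284, + strand), those of *Acadvl* (chr11:70015429-70015678, - strand) and *Acadm* (chr3:153944644-153944893, - strand) lie before their genes, and the last is the exon-free interval between *Hadha* (- strand) and *Hadhb* (+ strand), which encode the α and β chains of the mitochondrial trifunctional protein and start back to back (chr5:30155163-30155247, shown on the + strand).
Cpt1a: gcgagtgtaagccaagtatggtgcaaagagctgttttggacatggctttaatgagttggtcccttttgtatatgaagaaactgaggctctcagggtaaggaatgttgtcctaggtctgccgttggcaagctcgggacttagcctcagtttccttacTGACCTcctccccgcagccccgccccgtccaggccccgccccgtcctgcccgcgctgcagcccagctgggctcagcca
Acadvl: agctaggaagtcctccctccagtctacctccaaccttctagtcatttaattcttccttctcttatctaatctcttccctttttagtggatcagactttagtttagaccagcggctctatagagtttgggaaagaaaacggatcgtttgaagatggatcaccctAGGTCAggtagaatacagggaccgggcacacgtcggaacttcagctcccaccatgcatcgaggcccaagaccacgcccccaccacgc
Acadm: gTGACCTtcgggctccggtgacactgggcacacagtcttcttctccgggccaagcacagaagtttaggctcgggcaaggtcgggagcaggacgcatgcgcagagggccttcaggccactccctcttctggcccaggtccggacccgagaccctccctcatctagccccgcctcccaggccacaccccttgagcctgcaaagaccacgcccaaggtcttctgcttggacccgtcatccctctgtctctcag
Hadha to Hadhb: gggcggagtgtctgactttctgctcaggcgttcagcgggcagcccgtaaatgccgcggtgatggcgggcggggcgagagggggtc
A match of this kind is a description of the letters only. Of these genes, *Cpt1a* and *Acadvl* rose in BM and fell in ATMs of Vehicle mice, while *Acadm* fell in both, as given below.

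The total counts ran from 31086184 to 39925495 per BM library and from 24876074 to 45300263 per ATM library, of which 0.202% to 0.224% in BM and 0.132% to 0.271% in ATMs fell on the members. Replicates varied by a biological coefficient of 3.51% in BM and 32.5% in ATMs, so that small differences could pass the test in BM that could not in ATMs. In BM, the first WT library stood apart from the other WT libraries (a chi-square of 39.3 and 30.0 per degree of freedom against 2.04 to 4.50 for the other pairs within groups), and the counts for BM are therefore given with and without it. All libraries carry the same batch label, and the labels state 3 mice per group without saying which library came from which mouse, so the p-values measure the spread between these libraries only. Sex-linked transcripts also differed: *Xist*, which is transcribed from the inactive X chromosome, averaged 6544 normalized reads in BM of Vehicle and 1.58 in BM of WT (1249.6 and 16.3 in ATMs), and the Y-linked *Ddx3y* averaged 712 and 1572 (433 and 3735 in ATMs). Of the 5 sex-linked transcripts listed, 4 were lower and 1 higher in Vehicle vs WT in both tissues, 4 higher and 1 lower with either single agent vs Vehicle, and 4 lower and 1 higher in Combo vs WT, in Combo vs either single agent and in the test of non-additivity. Combo vs Vehicle had 5 lower in BM. In ATMs it had 1 lower and 4 not past the threshold (median -0.15), which does not show that the sexes were alike. In the other comparisons named here, the sex of the animals or cells and the group cannot be told apart. Normalized read counts are counts scaled to the same effective library size within a tissue, and a gene is said to have risen or fallen where edgeR's quasi-likelihood test gave an adjusted p below 0.05 over all genes of that tissue. Values given as ± SE, and values compared with another group in parentheses, are log2 fold changes from that fit.

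ATMs of Vehicle mice had less of most fatty acid oxidation transcripts than ATMs of WT mice, and each treatment was followed by higher levels of many of them. In Vehicle vs WT, 19 of the 31 members fell and 5 rose, where 56.9% of all genes passed the test, 32.6% as lower and 24.3% as higher. The median log2 fold change was -0.60 over the members and -0.21 over all genes. Against Vehicle, 15 members rose and 4 fell with the GLP-1R agonist (of all genes, 31.8% rose and 22% fell), 19 rose and 4 fell with the anti–IL-17A antibody (background 33.1% and 25%), and 16 rose and 3 fell in Combo (background 25% and 23.7%). The medians over the members in these 3 comparisons were 0.39, 0.51 and 0.31, beside 0.19, 0.17 and 0 over all genes. These 4 comparisons share the Vehicle libraries. The sorted cells also differed in their makeup: 12 macrophage markers, led by *Lyz2*, summed to 4917 to 5192 CPM in WT, 3453 to 3698 in Vehicle, 11492 to 11993 with the GLP-1R agonist, 16637 to 16852 with the antibody and 12089 to 12178 in Combo, with no marker at 0 in any library. *Lyz2* alone made up 2068 to 2208, 899 to 972, 5877 to 6165, 8554 to 8771 and 7072 to 7173 CPM of these sums. By the test of each marker, 4 rose and 8 fell in Vehicle vs WT (median -0.62) and 9 rose and 3 fell in Combo vs Vehicle (median 1.35). The 9 mature neutrophil markers measured of 10 listed summed to 446 to 456, 19945 to 21128, 250.1 to 267, 428 to 453 and 10692 to 10967 CPM in the same order, and 10 stromal and endothelial markers, led by *Dcn* or *Col3a1*, to 15354 to 16263, 7106 to 7443, 23536 to 24023, 15109 to 15285 and 13519 to 13944. The 8 erythroid markers measured of 12 listed were led by *Alas2*. They summed to 3965 to 4192 CPM in WT, 6819 to 6906 in Vehicle and 1548 to 1658 with the GLP-1R agonist. With the antibody they summed to 1284 to 1305, and in Combo to 5670 to 5797. In Vehicle this sum exceeded that of the macrophage markers, while 4 of the erythroid markers rose and 2 fell vs WT. Markers of immature granulocytes, of T and NK cells and of mesothelium also differed between groups. The 11 adipocyte markers, led by *Lpl* or *Pnpla2* (both also expressed in macrophages), summed to 773 to 785 in WT, 1076 to 1131 in Vehicle, 2134 to 2217 with the GLP-1R agonist, 3788 to 3875 with the antibody and 2503 to 2556 in Combo. Most of these markers did not move with that sum: 2 rose and 6 fell in Vehicle vs WT (median -0.31), 2 rose and 6 fell with the GLP-1R agonist (median -1.01), 3 rose and 4 fell with the antibody (median -0.49) and 4 rose and 2 fell in Combo (median 0.34). Transcripts of neighbouring organs were uneven too. Of 10 epididymis and seminal vesicle markers listed, 8 were measured. They summed to 2992 to 3140.1 CPM in WT, 2152 to 2248 with the GLP-1R agonist and 557 to 572 with the antibody. In Vehicle they summed to at most 0.586 and in Combo to 3.32 to 3.51. These organs are found in males, so the sums bear on the sex of the animals as well. The 9 pancreas markers measured of 10 listed summed to 1172 to 1189 in Combo and at most 27.6 elsewhere. The part of these cells in the results below was not tested, and in bulk libraries fewer cells of a type and less RNA per cell cannot be told apart.

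**Figure D1:**
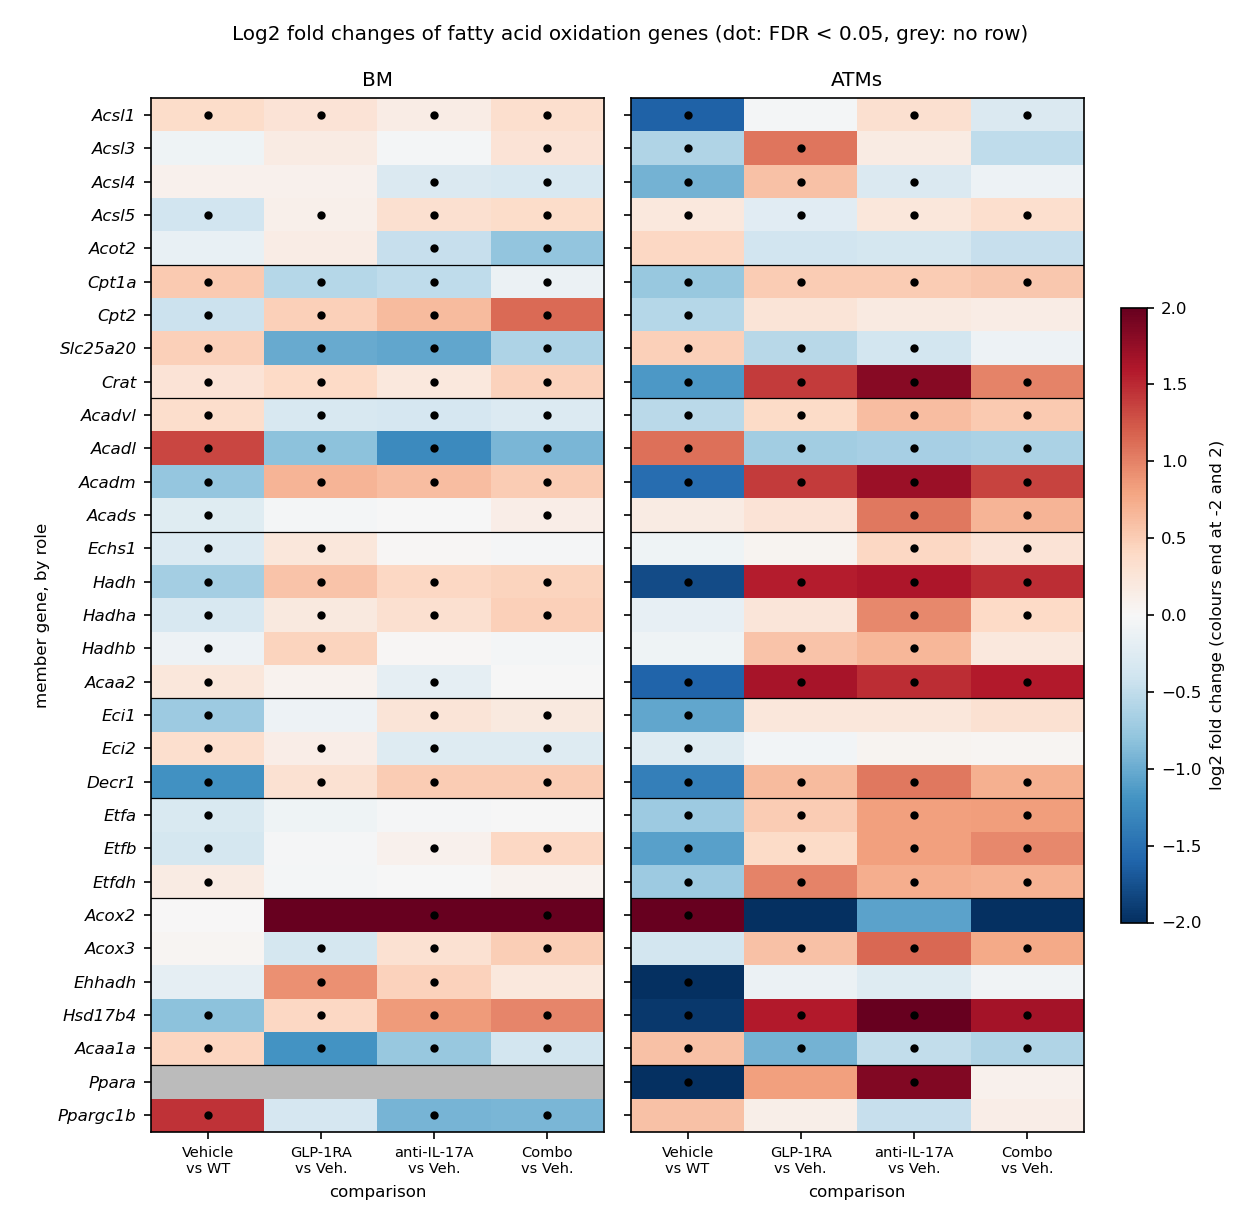
Log2 fold changes (colour, ending at -2 and 2) of the 31 members, by role, in 4 comparisons in BM (left) and ATMs (right), with a dot where the adjusted p was below 0.05 and grey where the gene had no row. ATMs of Vehicle mice are mostly blue against WT (19 members lower, 5 higher) and the 3 treated groups mostly red against Vehicle, whereas BM is mixed (13 lower and 11 higher in Vehicle vs WT), and the deep colours of *Acox2* come from groups with 0 or few counts.

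Of the enzymes that activate fatty acids, *Acsl1*, *Acsl3* and *Acsl4* fell in ATMs of Vehicle mice, and *Acsl1* stayed low with treatment. *Acsl1*, a main long-chain acyl-CoA synthetase of macrophages and fat, had normalized read counts of 8236, 8135 and 8479 in WT, 3292, 2185 and 2588 in Vehicle, 2813, 2566 and 2491 in the GLP-1R agonist group, 3134, 3282 and 3623 in the anti–IL-17A antibody group and 2229, 2191 and 2188 in Combo. All Vehicle libraries lay below all WT libraries (-1.62 ± 0.112 (SE), adjusted p = 5.13e-09), and the treated groups stayed well below WT, at -0.04 (adjusted p = 0.812), 0.32 ± 0.11 (SE), adjusted p = 0.0225 and -0.29 ± 0.11 (SE), adjusted p = 0.042 against Vehicle for the GLP-1R agonist, the antibody and Combo. The last of these calls was lost when only the libraries compared were fitted (adjusted p = 0.151) and in 5 of the 6 fits that left out 1 library (adjusted p from 0.0516 to 0.300, the highest without the first Vehicle library, where the value was -0.12). Of its exon length 9.91% overlaps *Gm45244*. *Acsl3* and *Acsl4*, which prefer long and polyunsaturated chains, fell by smaller amounts (-0.60 ± 0.223 (SE) and -0.94 ± 0.0897 (SE)) and rose again with the GLP-1R agonist (1.07 ± 0.224 (SE) and 0.59 ± 0.0894 (SE)). *Acsl4* is X-linked. With the antibody *Acsl4* fell further (-0.29 ± 0.0894 (SE)). *Acsl5*, another long-chain synthetase, rose slightly in Vehicle (0.21 ± 0.0764 (SE)), fell with the GLP-1R agonist (-0.23 ± 0.0764 (SE)) and rose further with the antibody (0.22 ± 0.0761 (SE)) and in Combo (0.34 ± 0.0762 (SE)), and *Acot2*, a mitochondrial thioesterase that works against activation, did not pass in any of the 4 comparisons (-0.46 to 0.41).

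In the carnitine shuttle, *Cpt1a*, the rate-controlling entry enzyme, had normalized read counts of 6443, 6507 and 6516 in WT, 4613, 3476 and 3422 in Vehicle, 5854, 5312 and 5209 in the GLP-1R agonist group, 5491, 5175 and 5743 in the anti–IL-17A antibody group and 5202, 6023 and 5514 in Combo in ATMs. WT libraries were the highest, Vehicle libraries the lowest, and the treated groups lay between them without overlap with Vehicle (-0.76 ± 0.0972 (SE), adjusted p = 7.27e-06 for Vehicle vs WT, then 0.51 ± 0.097 (SE), 0.51 ± 0.0969 (SE) and 0.54 ± 0.097 (SE) against Vehicle, with adjusted p = 0.000387, 0.000334 and 0.000251). None of the treated groups differed from WT past the threshold. *Crat*, the carnitine acetyltransferase that buffers acetyl-CoA, had 2681, 2764 and 2569 in WT, 1071, 1413 and 1141 in Vehicle, 3002, 3354 and 3226 in the GLP-1R agonist group, 3913, 4609 and 4336 in the anti–IL-17A antibody group and 2397, 2380.2 and 2431 in Combo. It fell in Vehicle (-1.14 ± 0.0969 (SE), adjusted p = 6.28e-08) and rose in all treated groups (1.40 ± 0.0973 (SE), 1.83 ± 0.098 (SE) and 0.99 ± 0.0966 (SE)), above WT with the GLP-1R agonist (0.26 ± 0.0942 (SE) against WT) and with the antibody (0.68 ± 0.0942 (SE)). *Cpt2* had 1087, 886 and 1076 in WT, 709, 779 and 572 in Vehicle, 820.2, 925 and 723 in the GLP-1R agonist group, 821, 768 and 736 in the anti–IL-17A antibody group and 644, 857 and 772 in Combo. In Vehicle it fell (-0.57 ± 0.157 (SE), adjusted p = 0.00623), and its treated values overlapped those of Vehicle. *Slc25a20*, the carrier of the inner membrane, went the other way: it rose in Vehicle (0.48 ± 0.101 (SE)) and fell with the GLP-1R agonist (-0.55 ± 0.101 (SE)) and with the antibody (-0.37 ± 0.1 (SE)).

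Among the mitochondrial acyl-CoA dehydrogenases, the medium-chain and the long-chain enzyme moved in opposite directions in ATMs. *Acadm*, the medium-chain dehydrogenase, had normalized read counts of 1780.5, 2037 and 1707 in WT, 681, 649 and 581 in Vehicle, 1707, 1844 and 1489 in the GLP-1R agonist group, 1953, 2282 and 2018 in the anti–IL-17A antibody group and 1692, 1536 and 1655 in Combo. The Vehicle libraries lay far below every other library (-1.53 ± 0.113 (SE), adjusted p = 1.1e-08), and the treated groups rose by 1.40 ± 0.113 (SE), 1.71 ± 0.113 (SE) and 1.35 ± 0.113 (SE) on the log2 scale to levels that did not differ from WT past the threshold. *Acadl*, the long-chain dehydrogenase, had 2770.2, 2774 and 2864 in WT, 6574, 5544 and 5957 in Vehicle, 3222, 4045 and 3941 in the GLP-1R agonist group, 3952, 3842 and 3628 in the anti–IL-17A antibody group and 3392, 4429.8 and 3857 in Combo. Here Vehicle was the highest group (1.10 ± 0.102 (SE), adjusted p = 1.72e-07), and all treated groups fell (-0.69 ± 0.101 (SE), -0.66 ± 0.101 (SE) and -0.63 ± 0.101 (SE)) while staying above WT (0.41 ± 0.101 (SE), 0.44 ± 0.101 (SE) and 0.47 ± 0.101 (SE) against WT). *Acadvl*, the very-long-chain dehydrogenase, fell in Vehicle (-0.55 ± 0.093 (SE)) and rose with every treatment (0.39 to 0.62), although 42.9% of its exon length overlaps *Dvl2* and reads from both genes could be counted for it. *Acads*, the short-chain dehydrogenase, did not pass in Vehicle vs WT (0.16 ± 0.13 (SE), adjusted p = 0.313) and rose with the antibody (1.06 ± 0.13 (SE)) and in Combo (0.68 ± 0.129 (SE)).

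The later steps of the mitochondrial spiral split into 2 enzymes with wide changes and 3 with little change in Vehicle. *Hadh*, the short-chain 3-hydroxyacyl-CoA dehydrogenase, had normalized read counts of 2577, 2613 and 2624 in WT, 649, 775 and 826 in Vehicle, 1909, 2469.7 and 2280.4 in the GLP-1R agonist group, 2244, 2350.3 and 2343 in the anti–IL-17A antibody group and 2117, 1896 and 2235 in Combo in ATMs. The Vehicle libraries lay below all others (-1.80 ± 0.111 (SE), adjusted p = 1.38e-09 against WT), and the treated groups rose by 1.57 ± 0.111 (SE), 1.62 ± 0.111 (SE) and 1.47 ± 0.11 (SE). *Acaa2*, the thiolase that closes the spiral, had 5733, 5880.4 and 5585 in WT, 2026, 2084 and 1559.6 in Vehicle, 5703, 6474 and 5647 in the GLP-1R agonist group, 5419.9, 4911 and 5391 in the anti–IL-17A antibody group and 5780.3, 5752 and 5498 in Combo. Its level fell in Vehicle (-1.60 ± 0.0931 (SE), adjusted p = 6.23e-10) and stood again within the range of WT or close to it in each treated group (1.65 ± 0.0931 (SE), adjusted p = 4.95e-10, 1.47 ± 0.0926 (SE), adjusted p = 1.74e-09 and 1.59 ± 0.0929 (SE), adjusted p = 8.51e-10 against Vehicle). By contrast, *Hadha* and *Hadhb*, the chains of the trifunctional protein whose shared upstream interval is printed above, and *Echs1*, the enoyl-CoA hydratase, did not pass in Vehicle vs WT (-0.16, -0.09 and -0.09, adjusted p = 0.363, 0.533 and 0.377). With the antibody all 3 rose (0.96 ± 0.142 (SE), 0.67 ± 0.117 (SE) and 0.42 ± 0.0846 (SE)), and with the GLP-1R agonist *Hadhb* rose (0.58 ± 0.117 (SE)) while *Hadha* did not pass (0.25 ± 0.142 (SE), adjusted p = 0.158).

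Both groups of enzymes that deal with double bonds and electrons were low in ATMs of Vehicle mice. *Decr1*, the dienoyl-CoA reductase for polyunsaturated chains, had normalized read counts of 1265, 1540.04 and 1531 in WT, 729, 411 and 537 in Vehicle, 794, 984 and 839.5 in the GLP-1R agonist group, 1180.3, 1154 and 1150.01 in the anti–IL-17A antibody group and 719.6, 979.7 and 1039 in Combo. It fell in Vehicle (-1.37 ± 0.19 (SE), adjusted p = 1.71e-05) and rose with each treatment (0.64 ± 0.189 (SE), 1.05 ± 0.189 (SE) and 0.71 ± 0.189 (SE)), though in Combo its lowest library was within the range of Vehicle. *Eci1*, an enoyl-CoA isomerase, had 1439.9, 1786 and 1626 in WT, 751, 961 and 659 in Vehicle, 833, 986 and 948 in the GLP-1R agonist group, 951, 801 and 1014 in the anti–IL-17A antibody group and 1041, 959 and 943 in Combo. In Vehicle it fell (-1.03 ± 0.148 (SE), adjusted p = 2.34e-05) and did not pass with any treatment (0.22, 0.22 and 0.31, adjusted p = 0.221, 0.21 and 0.0946), so that it stayed below WT in each treated group (-0.81, -0.81 and -0.72, all past the threshold). Its relative *Eci2* fell a little (-0.25 ± 0.0971 (SE)).

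The subunits of the electron transfer flavoprotein rose in 3 of 3 treated groups. *Etfa*, the α subunit, had normalized read counts of 4002, 4241 and 4178 in WT, 2537, 2545 and 2411 in Vehicle, 3848, 3368 and 3480.3 in the GLP-1R agonist group, 4219, 4469 and 4531 in the anti–IL-17A antibody group and 4611, 4662 and 4110.5 in Combo in ATMs. *Etfb*, the β subunit, had 4496, 4728 and 4766 in WT, 2115, 2202 and 2263 in Vehicle, 2924, 2791 and 2876 in the GLP-1R agonist group, 4136, 3849.6 and 3574 in the anti–IL-17A antibody group and 4292, 4225 and 4274 in Combo. Both fell in Vehicle (-0.73 ± 0.0691 (SE), adjusted p = 2.17e-07 for *Etfa* and -1.09 ± 0.0636 (SE), adjusted p = 5.6e-10 for *Etfb*), with no overlap of the groups. They rose with the GLP-1R agonist (0.51 ± 0.069 (SE) and 0.39 ± 0.0633 (SE)) as with the antibody (0.82 ± 0.069 (SE) and 0.81 ± 0.0632 (SE)) and in Combo (0.84 ± 0.0691 (SE) and 0.96 ± 0.0634 (SE)), and Combo exceeded the GLP-1R agonist for both (0.32 ± 0.0683 (SE), adjusted p = 0.00133 and 0.57 ± 0.0626 (SE), adjusted p = 2.27e-06). *Etfdh*, the dehydrogenase that hands these electrons to ubiquinone, fell in Vehicle (-0.73 ± 0.0783 (SE)) and rose with each treatment (0.69 to 0.99). Of the exon length of *Etfb*, 58.3% overlaps *Gm45233* and *Mir7051* in the annotation, and since the counting did not use strand their reads cannot be told apart.

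**Figure D2:**
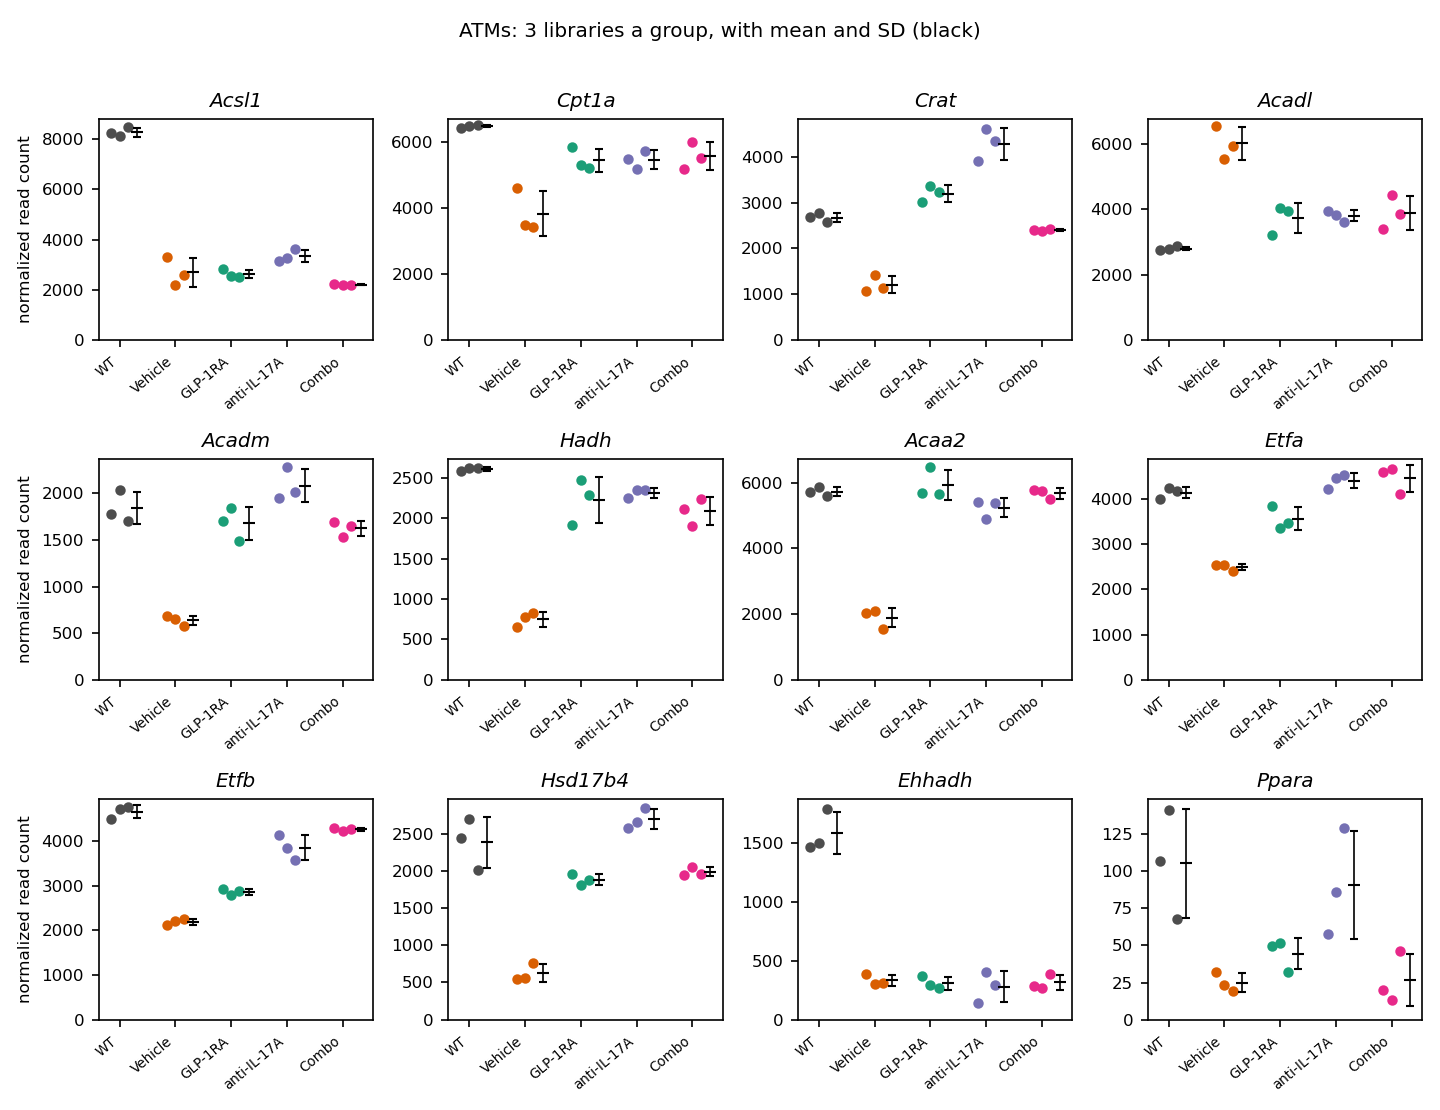
Normalized read counts (y axis, from 0) of 12 members in the 15 ATM libraries, 3 points per group, with the mean and SD in black beside them. *Acadm*, *Hadh*, *Acaa2* and *Hsd17b4* are low in Vehicle and high in the other groups, *Acadl* is the reverse, and *Acsl1* and *Ehhadh* are high in WT and low in Vehicle and every treated group.

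In peroxisomes, the 2 bifunctional enzymes parted. *Hsd17b4*, the D-bifunctional protein of very-long-chain and branched-chain oxidation, had normalized read counts of 2441, 2693 and 2008 in WT, 553, 558 and 763 in Vehicle, 1954, 1803 and 1879.8 in the GLP-1R agonist group, 2579.9, 2651 and 2845 in the anti–IL-17A antibody group and 1948, 2054 and 1962 in Combo in ATMs. Its level fell in Vehicle (-1.93 ± 0.13 (SE), adjusted p = 3.71e-09) and rose by 1.59 ± 0.129 (SE), 2.11 ± 0.13 (SE) and 1.67 ± 0.129 (SE) with the GLP-1R agonist, the antibody and both. *Ehhadh*, the L-bifunctional protein, had 1459, 1493 and 1786 in WT, 386, 302 and 308 in Vehicle, 367, 291 and 264 in the GLP-1R agonist group, 140.2, 400.3 and 293 in the anti–IL-17A antibody group and 289, 272 and 388 in Combo. It fell by more than any other member of that comparison (-2.25 ± 0.297 (SE), adjusted p = 9.93e-06), and its treated values overlapped those of Vehicle (-0.11, -0.26 and -0.07, adjusted p = 0.775, 0.464 and 0.891), with each treated group below WT (-2.36 ± 0.297 (SE), -2.51 ± 0.298 (SE) and -2.32 ± 0.296 (SE)). *Acaa1a*, the peroxisomal thiolase, rose in Vehicle (0.59 ± 0.0697 (SE)) and fell with each treatment (-0.94 to -0.49), the direction of *Acadl* and opposite to *Acaa2*. *Acox3*, an oxidase of branched chains, did not pass in Vehicle vs WT (-0.37 ± 0.182 (SE), adjusted p = 0.0967) and rose with each treatment (0.58 to 1.14). *Acox2*, the branched-chain oxidase of bile acid synthesis, was near the limit of detection: it had 0 counts in all WT libraries, 0, 26 and 29 in Vehicle, 0, 3 and 4 with the GLP-1R agonist, 54, 1 and 0 with the antibody and 0, 0 and 10 in Combo, and its rise in Vehicle vs WT (adjusted p = 0.0437) was lost when any of 5 of the 6 libraries was left out (adjusted p from 0.0702 to 0.0960).

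The regulators were sparse in ATMs. *Ppara*, the receptor that drives many of these genes in liver, had normalized read counts of 107, 141 and 67.6 in WT, 32.1, 23.5 and 19.5 in Vehicle, 49.8, 51.5 and 32.3 in the GLP-1R agonist group, 57.5, 85.7 and 129 in the anti–IL-17A antibody group and 19.9, 13.5 and 46.5 in Combo, a level of 0.827 RPKM (reads scaled to exon length and library size) in WT. It fell in Vehicle (-2.07 ± 0.611 (SE), adjusted p = 0.00918) and rose with the antibody (1.85 ± 0.607 (SE), adjusted p = 0.016), while the GLP-1R agonist (0.83 ± 0.598 (SE), adjusted p = 0.264) and Combo (0.09 ± 0.598 (SE), adjusted p = 0.956) did not pass. *Ppargc1b*, a coactivator of mitochondrial genes, had 116, 130.4 and 117 in WT, 219, 30.8 and 296 in Vehicle, 246, 157 and 189 in the GLP-1R agonist group, 168, 119 and 111 in the anti–IL-17A antibody group and 249, 153 and 199 in Combo, with Vehicle libraries that spanned those of every other group and no comparison with Vehicle past the threshold. For scale, the highest members per length in WT ATMs were *Etfb* (121 RPKM), *Acaa2* (114 RPKM) and *Etfa* (68 RPKM).

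Treated ATMs did not return to the WT profile for every gene. Against WT, the GLP-1R agonist group had 5 members higher and 10 lower, the antibody group had 8 and 5, and Combo had 4 and 9, where 35.5%, 38.3% and 41.1% of all genes passed. *Acsl1*, *Acsl4*, *Eci1* and *Ehhadh* were lower, and *Acadl* and *Acads* higher, than WT in all 3. Combo and the single agents were also compared directly. Combo exceeded the GLP-1R agonist for 6 members and was lower for 5 (background 39.8%), and it exceeded the antibody for 0 members and was lower for 9 (background 10.7% higher and 17.9% lower), among them *Crat* (-0.83 ± 0.0943 (SE)), *Acsl1* (-0.60 ± 0.11 (SE)) and *Ppara* (-1.77 ± 0.599 (SE)). Beside edgeR's 0 higher, 3 members (*Acsl4*, *Slc25a20* and *Etfb*) were higher at an unadjusted p under 0.05, and DESeq2 also called 0 higher and 9 lower. Without the second Combo library the lower count was 5. In the test of non-additivity, which asks whether the change in Combo differed from the sum of the changes with each agent alone on the log2 scale, 19 members were below the sum and 4 above it (background 29.8% below and 20.7% above). *Crat* was -2.24 ± 0.135 (SE), adjusted p = 1.32e-09, *Hsd17b4* -2.03 ± 0.177 (SE), adjusted p = 1.12e-07, and *Acadm*, *Hadh* and *Acaa2* between -1.75 and -1.54. For the last 3 the change in Combo was close to that with each agent alone.

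In BM the picture was mixed, with groups of members moving in opposite directions. In Vehicle vs WT, 13 of the 30 members fell and 11 rose, where 76.6% of all genes passed the test, 38.8% as lower and 37.8% as higher. The median was -0.10 over the members and -0.02 over all genes, and 3 members went beyond a log2 fold change of 1 in either direction (background 19.5%): *Ppargc1b* and *Acadl* upward and *Decr1* downward. Without the first WT library 12 members rose and 12 fell. Against Vehicle, 13 rose and 6 fell with the GLP-1R agonist (background 36.5% and 36.3%), 14 rose and 10 fell with the antibody (background 36.4% and 36.6%), and 15 rose and 9 fell in Combo (background 37.9% and 35.8%). The makeup of the BM moved with the groups: macrophage markers, led by *Lyz2*, summed to 14208 to 14495 CPM in WT, 5197 to 5228 in Vehicle, 4367 to 4392 with the GLP-1R agonist, 7879.5 to 7939 with the antibody and 8286 to 8379.5 in Combo. These sums were mostly *Lyz2*, with 12757 to 13011 CPM in WT, 3443 to 3492 in Vehicle and 6236 to 6338 in Combo, and the 12 markers did not move together: 6 rose and 5 fell in Vehicle vs WT (median 0.13), and 3 rose and 8 fell in Combo vs Vehicle (median -0.996). Mature neutrophil markers were the most abundant list (72863 to 73562 CPM with the GLP-1R agonist to 117875 to 119701 in Combo), 8 markers of immature granulocytes, led by *Mpo*, ran from 4880.1 to 5021 in Vehicle to 11379 to 11556 in Combo, 8 erythroid markers from 1742 to 1769.5 in Vehicle to 4379 to 4424 with the GLP-1R agonist, and 10 B cell markers from 1407 to 1441 in WT to 139 to 142 with the GLP-1R agonist. No marker of these 5 lists was at 0 in any library, and their part in the results for BM was not tested.

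*Acsl1* and *Cpt1a*, which stand at activation and entry, were higher in BM of Vehicle mice, while *Cpt2* was lower. *Acsl1* had normalized read counts of 5558, 5457 and 5402 in WT, 7018, 7103 and 7107 in Vehicle, 8553, 8434 and 8669 in the GLP-1R agonist group, 7899, 7814 and 7792 in the anti–IL-17A antibody group and 8692, 8963 and 9054 in Combo, with every Ob/Ob group above WT (0.37 ± 0.0257 (SE), adjusted p = 2.54e-16 for Vehicle vs WT) and Combo the highest (0.33 ± 0.0253 (SE) against Vehicle). *Cpt1a* had 4944, 5202 and 5213 in WT, 7294, 7612 and 7152 in Vehicle, 4979, 4835 and 4992 in the GLP-1R agonist group, 5261, 5149 and 5077 in the anti–IL-17A antibody group and 6818, 6793 and 6659 in Combo. It rose in Vehicle (0.52 ± 0.0289 (SE), adjusted p = 1.71e-19), fell to the level of WT with the GLP-1R agonist (-0.58 ± 0.0289 (SE)) and with the antibody (-0.51 ± 0.0289 (SE)), and fell less in Combo (-0.12 ± 0.0286 (SE)), where it stayed above WT (0.40 ± 0.0289 (SE)). *Cpt2* had 709.9, 821 and 772 in WT, 560.2, 568 and 584 in Vehicle, 749, 818 and 827 in the GLP-1R agonist group, 856, 940.3 and 871 in the anti–IL-17A antibody group and 1175, 1308 and 1281 in Combo. In Vehicle it fell (-0.43 ± 0.0667 (SE), adjusted p = 3.63e-07) and rose with the GLP-1R agonist (0.48 ± 0.0662 (SE)), the antibody (0.64 ± 0.0654 (SE)) and both (1.14 ± 0.0641 (SE), adjusted p = 3.21e-19), with Combo above either agent (0.65 ± 0.0602 (SE) and 0.50 ± 0.0595 (SE)). *Crat* had 1320.2, 1604 and 1438 in WT, 1766, 1787 and 1690.3 in Vehicle, 2299.7, 2314 and 2312 in the GLP-1R agonist group, 2024, 2031 and 2019.5 in the anti–IL-17A antibody group and 2368, 2324 and 2556 in Combo and was higher than WT in every Ob/Ob group (0.27, 0.67, 0.48 and 0.73). *Slc25a20* rose in Vehicle (0.48 ± 0.0406 (SE)) and fell with the GLP-1R agonist (-1.01 ± 0.0418 (SE)), the antibody (-1.05 ± 0.0419 (SE)) and both (-0.62 ± 0.0411 (SE)). Of the other synthetases and the thioesterase, *Acsl5* fell in Vehicle (-0.39 ± 0.0275 (SE)) and rose with each treatment (0.09, 0.32 and 0.36), whereas *Acsl4* (-0.31 ± 0.0544 (SE)) and *Acot2* (-0.78 ± 0.135 (SE)) fell in Combo, and *Acsl3* rose there (0.27 ± 0.103 (SE), adjusted p = 0.0197).

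The split between medium-chain and long-chain dehydrogenase was present in BM too. *Acadl* had normalized read counts of 4211, 4179 and 4267 in WT, 10662, 10434 and 10791 in Vehicle, 5839, 6055 and 6122 in the GLP-1R agonist group, 4298, 4414 and 4438 in the anti–IL-17A antibody group and 5589.6, 5700.2 and 5636 in Combo. Vehicle exceeded WT (1.33 ± 0.0272 (SE), adjusted p = 1.31e-34), and all treated groups fell from it (-0.82 ± 0.0266 (SE), -1.28 ± 0.0271 (SE) and -0.91 ± 0.0268 (SE)), the antibody group to a level that did not differ from WT past the threshold. *Acadm* had 1819, 1910.4 and 1989 in WT, 1159, 1103 and 1063 in Vehicle, 1819.7, 1780.1 and 1730.1 in the GLP-1R agonist group, 1648, 1748 and 1718 in the anti–IL-17A antibody group and 1559.7, 1564 and 1625 in Combo. Here Vehicle was the lowest group (-0.78 ± 0.0468 (SE), adjusted p = 2.41e-18), and the treated groups rose (0.68 ± 0.0469 (SE), 0.62 ± 0.0471 (SE) and 0.51 ± 0.0478 (SE)) but stayed a little below WT (-0.10, -0.16 and -0.27, all past the threshold). *Acadvl* followed *Acadl* on a smaller scale (0.34 ± 0.0361 (SE) in Vehicle vs WT, -0.27 to -0.34 with treatment). *Acads* fell in Vehicle (-0.25 ± 0.0497 (SE)).

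Further along the spiral, *Hadh* had normalized read counts of 1468, 1464 and 1522 in WT, 962, 908 and 923 in Vehicle, 1356, 1454 and 1324 in the GLP-1R agonist group, 1240.4, 1205 and 1264 in the anti–IL-17A antibody group and 1258, 1268 and 1284 in Combo in BM. Its level fell in Vehicle (-0.67 ± 0.0497 (SE), adjusted p = 1.65e-15) and rose with each treatment (0.57 ± 0.0498 (SE), 0.41 ± 0.0503 (SE) and 0.45 ± 0.0506 (SE)). *Acaa2* had 2269, 2257 and 2421 in WT, 2757, 2679 and 2670.4 in Vehicle, 2898, 2859.9 and 2797 in the GLP-1R agonist group, 2409.7, 2431 and 2341 in the anti–IL-17A antibody group and 2745, 2701 and 2643 in Combo and, unlike in ATMs, rose in Vehicle (0.22 ± 0.037 (SE), adjusted p = 1.02e-06), fell with the antibody (-0.17 ± 0.0368 (SE)) and did not pass in Combo vs Vehicle (-0.0031 ± 0.0367 (SE), adjusted p = 0.943). The neighbours *Hadha* and *Hadhb* parted in BM: in Vehicle vs WT they fell by unequal amounts (-0.32 ± 0.0274 (SE) and -0.10 ± 0.0394 (SE)), in Combo *Hadha* rose (0.47 ± 0.0274 (SE)) while *Hadhb* did not pass (-0.04 ± 0.0398 (SE), adjusted p = 0.351), and with the GLP-1R agonist both rose (0.20 ± 0.0275 (SE) for *Hadha* and 0.45 ± 0.0387 (SE) for *Hadhb*). *Echs1* fell in Vehicle (-0.27 ± 0.0402 (SE)) and rose with the GLP-1R agonist (0.22 ± 0.0402 (SE)).

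*Decr1* had normalized read counts of 791, 824 and 855 in WT, 321, 365 and 379 in Vehicle, 454, 479 and 377 in the GLP-1R agonist group, 528, 485 and 509 in the anti–IL-17A antibody group and 532, 482 and 504 in Combo in BM, with every Ob/Ob library below every WT library (-1.21 ± 0.0803 (SE), adjusted p = 5.69e-17 for Vehicle vs WT). It rose in part with each treatment (0.30 ± 0.0852 (SE), 0.51 ± 0.0838 (SE) and 0.51 ± 0.0848 (SE)) and stayed below WT (-0.91, -0.70 and -0.70). *Eci1* had 723, 721 and 733 in WT, 425, 436 and 456 in Vehicle, 422, 423 and 376 in the GLP-1R agonist group, 487, 524 and 554 in the anti–IL-17A antibody group and 449, 505 and 549 in Combo. It fell in Vehicle (-0.73 ± 0.0759 (SE), adjusted p = 3.46e-11), and its rise in Combo (0.19 ± 0.0793 (SE), adjusted p = 0.0301) was lost with DESeq2 (adjusted p = 0.0519) and in 5 of the 6 fits that left out 1 library, where adjusted p ran from 0.0654 to 0.215. *Eci2* rose in Vehicle (0.34 ± 0.042 (SE)), opposite to *Eci1*. *Etfa* had 3170.3, 2892 and 3020.04 in WT, 2556, 2309 and 2464 in Vehicle, 2227, 2340.2 and 2325 in the GLP-1R agonist group, 2367, 2322 and 2519 in the anti–IL-17A antibody group and 2495, 2392 and 2378 in Combo and *Etfb* 5973, 6354 and 6407 in WT, 4788, 4930.1 and 4978 in Vehicle, 4891, 4694 and 4808 in the GLP-1R agonist group, 5146, 5245 and 5169 in the anti–IL-17A antibody group and 6587, 6472 and 6557 in Combo. Both fell in Vehicle (-0.31 ± 0.0415 (SE), adjusted p = 1.29e-08 and -0.35 ± 0.0292 (SE), adjusted p = 6.43e-14), after which *Etfa* did not pass in any treated group (-0.09, -0.02 and -0.01 against Vehicle) and *Etfb* rose with the antibody (0.08 ± 0.0293 (SE)) and in Combo (0.42 ± 0.0292 (SE)). *Etfdh* rose slightly in Vehicle (0.16 ± 0.0449 (SE)).

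**Figure D3:**
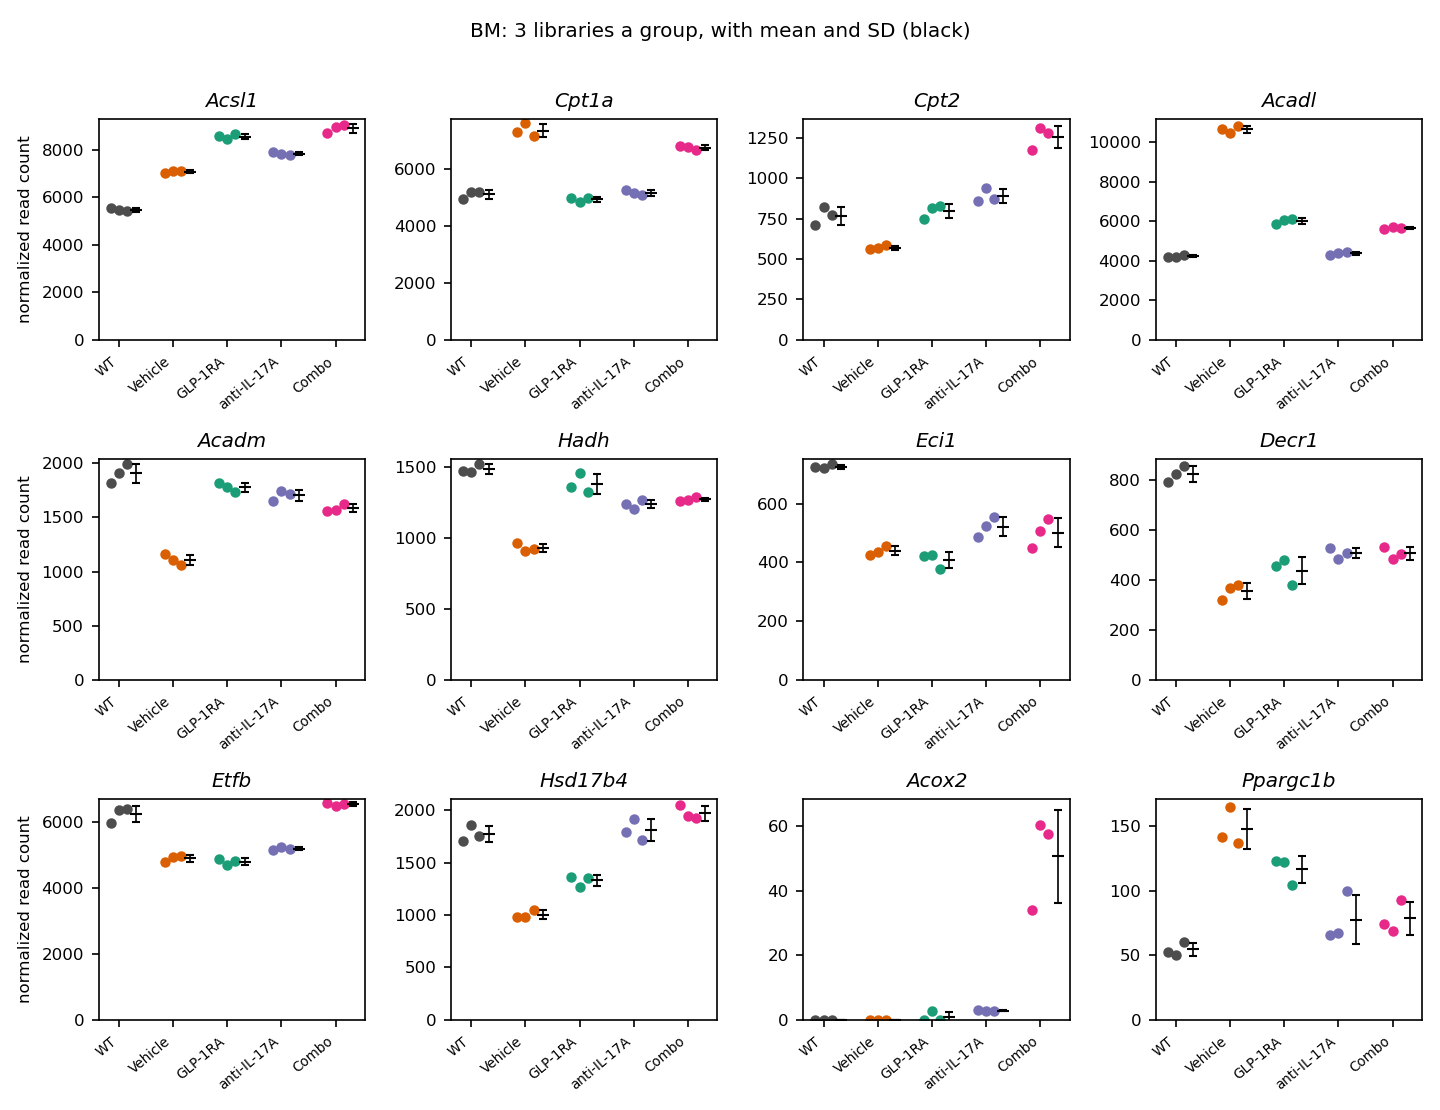
Normalized read counts (y axis, from 0) of 12 members in the 15 BM libraries, 3 points per group, with the mean and SD in black beside them. *Acadl* and *Cpt1a* are highest in Vehicle, *Acadm*, *Hadh* and *Hsd17b4* are lowest there, *Cpt2* is highest in Combo, and *Acox2* is near 0 outside Combo.

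In the peroxisome of BM cells, *Hsd17b4* had normalized read counts of 1712, 1861 and 1757 in WT, 979.8, 983 and 1049.7 in Vehicle, 1363, 1272 and 1357 in the GLP-1R agonist group, 1795, 1921 and 1718 in the anti–IL-17A antibody group and 2054, 1944 and 1923 in Combo. In Vehicle it fell (-0.82 ± 0.0507 (SE), adjusted p = 5.51e-18) and rose with the GLP-1R agonist (0.41 ± 0.0518 (SE)), the antibody (0.85 ± 0.0505 (SE)) and both (0.98 ± 0.0506 (SE), adjusted p = 1.9e-20). *Acox2* was found almost only in Combo, with counts of 33, 57 and 55 there, 0 in all WT and Vehicle libraries, 0, 3 and 0 with the GLP-1R agonist and 3, 3 and 3 with the antibody. Against a floor of 3 counts per library, Combo was at least 14.8-fold higher than Vehicle (adjusted p = 1.82e-10) and at least 17.2-fold higher than WT. Its level stayed low (0.392 RPKM in Combo). *Ehhadh* had normalized read counts of 151, 159 and 169 in WT, 161, 128 and 133 in Vehicle, 276, 253 and 271 in the GLP-1R agonist group, 208, 193 and 178 in the anti–IL-17A antibody group and 165, 186 and 139.8 in Combo. It did not pass in Vehicle vs WT (-0.18 ± 0.13 (SE), adjusted p = 0.209) and rose with the GLP-1R agonist (0.92 ± 0.121 (SE)) and with the antibody (0.45 ± 0.126 (SE)). *Acaa1a* rose in Vehicle (0.43 ± 0.0459 (SE)) and fell with each treatment (-1.19, -0.75 and -0.37), as it did in ATMs. *Acox3* fell with the GLP-1R agonist (-0.35 ± 0.0408 (SE)) and rose with the antibody (0.30 ± 0.0394 (SE)) and in Combo (0.49 ± 0.0393 (SE)). The coactivator *Ppargc1b* had 52.8, 50.6 and 60.3 in WT, 142, 165 and 137 in Vehicle, 123, 123 and 104 in the GLP-1R agonist group, 66, 67.4 and 99.8 in the anti–IL-17A antibody group and 74.1, 68.8 and 92.9 in Combo, a rise in Vehicle (1.44 ± 0.178 (SE), adjusted p = 2.12e-09) with a fall with the antibody (-0.93 ± 0.167 (SE)) and in Combo (-0.91 ± 0.17 (SE)).

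Combo and the single agents were compared in BM as well. Combo exceeded the GLP-1R agonist for 15 members and was lower for 11 (background 71.4%), and it exceeded the antibody for 15 and was lower for 2 (background 30.9% higher and 21.7% lower). All 4 members of the carnitine shuttle were higher in Combo than with the antibody (*Cpt1a* 0.39 ± 0.0288 (SE), *Cpt2* 0.50 ± 0.0595 (SE), *Slc25a20* 0.43 ± 0.0428 (SE) and *Crat* 0.26 ± 0.0466 (SE)). The GLP-1R agonist differed from the antibody for 12 members upward and 9 downward (background 62.7%). Against WT, 10 members were higher and 13 lower with the GLP-1R agonist, 8 and 13 with the antibody, and 13 and 11 in Combo (background 74.7%, 66.3% and 73.3%), and without the first WT library these were 10 and 14, 7 and 13, and 13 and 11. In the test of non-additivity 8 members were above and 9 below the sum of the single effects (background 35.6% and 33.1%). Those furthest above were *Acaa1a* (1.58 ± 0.0674 (SE), adjusted p = 4.19e-23), *Slc25a20* (1.44 ± 0.0599 (SE), adjusted p = 1.45e-23), *Acadl* (1.19 ± 0.0382 (SE), adjusted p = 1.97e-27) and *Cpt1a* (0.96 ± 0.0409 (SE), adjusted p = 3.12e-23), which fell with each agent alone and by less than the sum in Combo, and those furthest below were *Ehhadh* (-1.16 ± 0.172 (SE), adjusted p = 1.63e-07) and *Acadm* (-0.79 ± 0.065 (SE), adjusted p = 6.7e-14).

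Whether the members moved differently in ATMs and in BM was tested as the difference of the 2 log2 fold changes in 1 limma model of all 30 libraries over the 13076 genes in both tables. That model weights the libraries, so its value can depart from the difference between the edgeR fold changes given above. In Vehicle vs WT, 16 of 30 members differed, 15 of them lower in ATMs relative to BM and 1 higher. Of all genes 53% differed in either direction, close to the share of the members. The shares of all genes in each direction are not given. Among the widest were *Ehhadh* (-2.06 ± 0.301 (SE), adjusted p = 2.71e-07), *Acsl1* (-2.0 ± 0.0948 (SE), adjusted p = 6.5e-21), *Acaa2* (-1.83 ± 0.108 (SE), adjusted p = 7.13e-18), *Crat* (-1.43 ± 0.153 (SE), adjusted p = 2.47e-10) and *Cpt1a* (-1.29 ± 0.0981 (SE), adjusted p = 2.11e-14), and *Acsl5* was the member in the other direction (0.59 ± 0.0926 (SE), adjusted p = 1.04e-06). The value of *Ppargc1b* was -1.36 ± 0.58 (SE), adjusted p = 0.0468, but its edgeR fold changes were 1.44 in BM and 0.59 in ATMs, and the difference did not pass in 1 edgeR fit of the 30 libraries (adjusted p = 0.229), where *Acads* passed instead (0.0114, beside 0.0657 in limma). In Combo vs Vehicle, 21 members differed, 17 higher and 4 lower in ATMs relative to BM (background 52.6% in either direction), among them *Acaa2* (1.64 ± 0.106 (SE), adjusted p = 1.17e-16) and *Hadh* (1.07 ± 0.152 (SE), adjusted p = 1.41e-07), with *Cpt2* the reverse (-0.96 ± 0.198 (SE), adjusted p = 8.96e-05). Among the 17, *Hadhb* and *Ppargc1b* did not pass in the edgeR fit (adjusted p = 0.0664 and 0.116, against 0.0211 and 0.009 in limma). Of the 19 members that passed in both tissues in Vehicle vs WT, 11 moved the same way (57.9%, beside 72.3% of the 6169 genes that passed in both). The 8 lower in both were *Cpt2*, *Acadm*, *Hadh*, *Eci1*, *Decr1*, *Etfa*, *Etfb* and *Hsd17b4*, and the 3 higher in both were *Slc25a20*, *Acadl* and *Acaa1a*. In Combo vs Vehicle, 12 of the 15 that passed in both moved the same way (80%, beside 69.3% of 5700 genes).

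**Figure D4:**
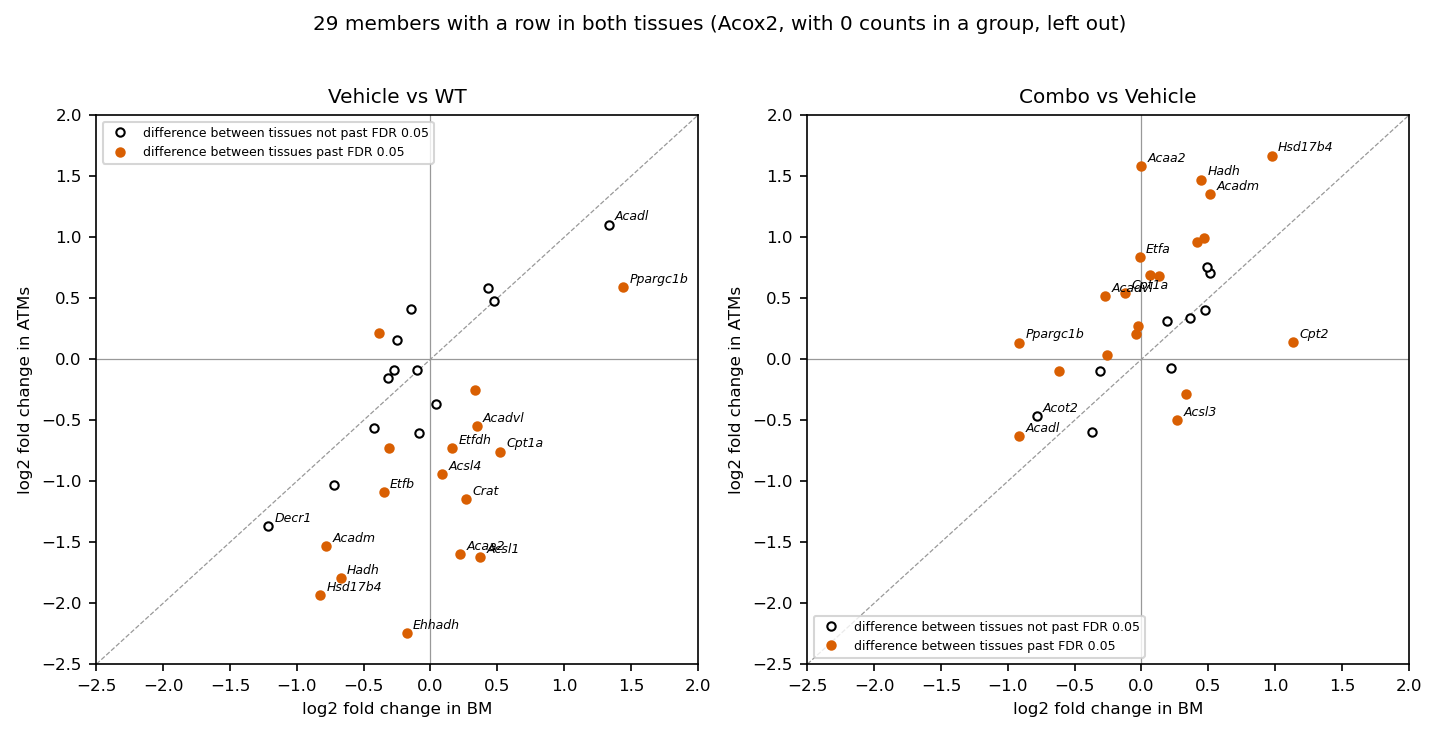
Log2 fold changes in ATMs (y axis) against those in BM (x axis) for Vehicle vs WT (left) and Combo vs Vehicle (right), one point for each of 29 members (without *Acox2*), filled in orange where the difference between the tissues passed an adjusted p of 0.05, with the dashed line at equality. In Vehicle vs WT 15 filled points lie below the line and 1 above it, while *Acadl* is high in both tissues. Of all genes 53% differed between the tissues in that comparison in either direction, and their shares in each direction are not given.

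As a summary of the whole list, each member's log2 CPM was centred on its mean over the 15 libraries of a tissue and averaged over the members. This level is a description of the list and was not tested. In ATMs it was 0.175 ± 0.0274 in WT, -0.344 ± 0.0554 in Vehicle, 0.0199 ± 0.0831 with the GLP-1R agonist, 0.185 ± 0.0714 with the antibody and -0.0364 ± 0.142 in Combo (SD, n = 3 libraries each). Vehicle libraries were the lowest and did not overlap any other group. In BM it was -0.0548 ± 0.0194, -0.0890 ± 0.00654, -0.0364 ± 0.0577, -0.0295 ± 0.0115 and 0.210 ± 0.0364 in the same order, and Combo was the highest. With the median over members in place of the mean, Combo in BM was 0.0598 ± 0.0118 and Vehicle -0.0963 ± 0.0216. *Acox2*, at 0 counts in Vehicle, enters the mean with its full difference. That gene of few counts thus makes up part of the height of Combo in the mean level of BM.

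**Figure D5:**
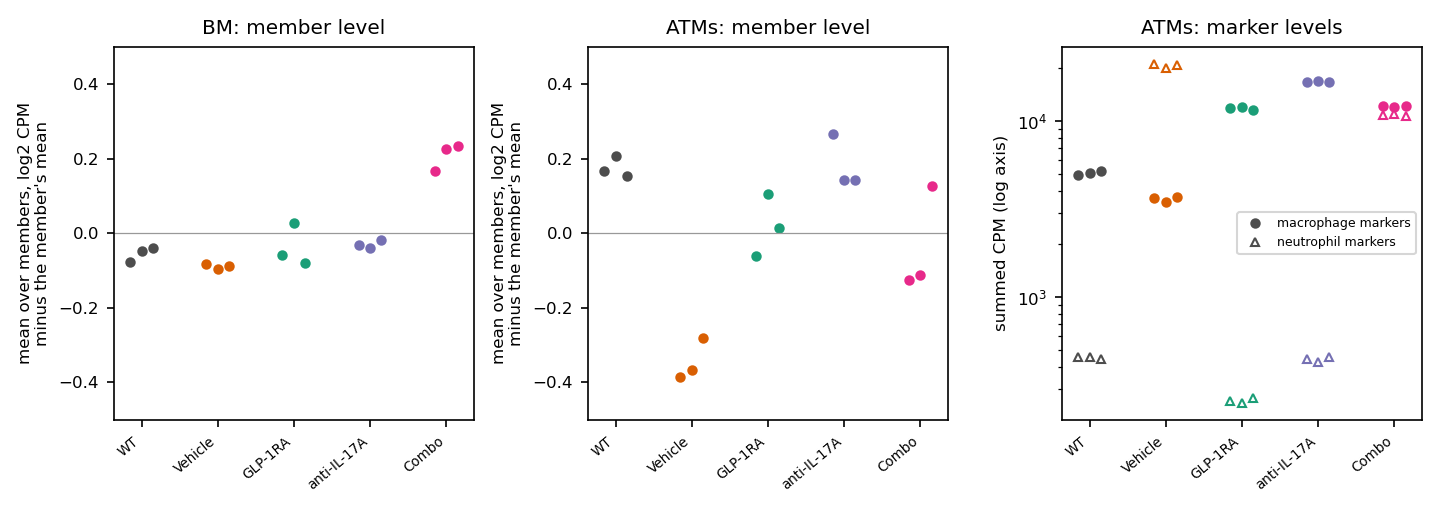
Left and middle, the mean level of the members in each library (log2 CPM minus the member's mean over the tissue) in BM and in ATMs, and right, the summed CPM of 12 macrophage markers (filled circles) and 9 mature neutrophil markers (open triangles) in ATMs on a log axis, 3 libraries per group. Vehicle has the lowest member level in ATMs together with the highest neutrophil and the lowest macrophage marker sums, and Combo has neutrophil marker sums from 10692 to 10967 CPM with member levels above those of Vehicle. Other marker lists also differed between groups and are not plotted, and the part of these cells in the member level was not tested.

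Other genes of the pathway were read beside the members and beside the shares of all genes that passed. Their lists were drawn up by function but with earlier results of these data known, so they are no independent support. Of 18 further mitochondrial genes listed, 15 were measured in each tissue, and of 21 peroxisomal genes, 15 in BM and 19 in ATMs. In Vehicle vs WT 37.8% of all genes rose and 38.8% fell in BM, and 24.3% rose and 32.6% fell in ATMs, with medians of -0.02 and -0.21. For Combo vs Vehicle 37.9% rose and 35.8% fell in BM, and 25% rose and 23.7% fell in ATMs, with medians of 0.02 and 0. Of 15 further mitochondrial oxidation genes, 15 fell in BM of Vehicle vs WT (median -0.65) and 13 fell in ATMs (median -1.49), among them *Acad12*, an acyl-CoA dehydrogenase family member (-2.15 ± 0.21 (SE), adjusted p = 8.98e-12 in BM and -3.38 ± 0.585 (SE), adjusted p = 0.000147 in ATMs), and *Pccb*, a subunit of propionyl-CoA carboxylase (-1.37 ± 0.066 (SE), adjusted p = 1.51e-21 and -3.76 ± 0.318 (SE), adjusted p = 6.25e-08). In Combo vs Vehicle 13 of them rose in BM (median 0.83) and 12 in ATMs (median 0.98). Of the further peroxisomal genes, 11 fell and 3 rose of 15 in BM of Vehicle vs WT (median -0.41) and 14 fell and 1 rose of 19 in ATMs (median -0.99). *Crot*, the peroxisomal carnitine octanoyltransferase, averaged 784 normalized reads in ATMs of Vehicle and 5196 in WT (-2.73 ± 0.144 (SE), adjusted p = 1.92e-10). In Combo vs Vehicle 11 of these rose and 1 fell in BM, and 9 rose and 4 fell in ATMs.

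Uptake and carnitine genes were mixed: of 12, 4 rose and 7 fell in BM of Vehicle vs WT and 5 rose and 4 fell in ATMs. *Fabp4*, a fatty acid carrier of fat cells and macrophages, fell in BM (-1.90 ± 0.0922 (SE), adjusted p = 3.13e-20) and rose in ATMs (2.01 ± 0.0315 (SE), adjusted p = 6.75e-17), and *Cd36*, a fatty acid transporter, fell in BM (-2.20 ± 0.0784 (SE), adjusted p = 4.18e-22). In Combo vs Vehicle 3 rose and 5 fell in BM, and 6 rose and 3 fell in ATMs. Of the further regulators, 6 rose and 8 fell of 17 in BM and 5 rose and 5 fell of 20 in ATMs, where *Pparg*, the receptor that governs fat storage, rose (1.66 ± 0.146 (SE), adjusted p = 9.42e-08) and *Ppargc1a*, the relative of *Ppargc1b*, fell (-4.38 ± 1.12 (SE), adjusted p = 0.00357). In Combo vs Vehicle 11 of the regulators rose and 6 fell in BM, and 4 rose and 5 fell in ATMs. Of 13 known PPAR targets outside fatty acid oxidation in ATMs, 7 rose and 2 fell in Vehicle vs WT and 2 rose and 11 fell in Combo vs Vehicle, and of 11 in BM, 7 rose and 1 fell and then 8 fell in Combo. *Plin2*, which coats lipid droplets, rose in ATMs of Vehicle mice (2.90 ± 0.0255 (SE), adjusted p = 1.59e-19), as did *Angptl4*, an inhibitor of lipoprotein lipase (2.43 ± 0.0499 (SE), adjusted p = 1.69e-15). Of 20 genes of the TCA cycle, which takes up the acetyl-CoA of the spiral, 5 rose and 12 fell in ATMs of Vehicle vs WT (median -0.42) and 16 rose and 1 fell in Combo vs Vehicle, among them *Idh2*, the mitochondrial NADP-dependent isocitrate dehydrogenase (-2.25 ± 0.113 (SE), adjusted p = 9.64e-11 and 2.19 ± 0.112 (SE), adjusted p = 1.65e-10). In BM 5 rose and 9 fell, and then 14 rose and 3 fell in Combo.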

How the data were processed

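RNA was sequenced from BM and F4/80+ ATMs, 15 libraries each. The authors aligned the reads with STAR (2.7.2a) to mm10 (GRCm38) and deposited raw counts per gene from featureCounts (2.0.1), per the study's methods without strand and against GENCODE M22, with a read allowed to count for overlapping genes. Here each tissue's counts were fitted with edgeR (4.0.16, R 4.3.3; TMM size factors, filterByExpr, robust quasi-likelihood test, 5 groups in 1 fit), with Benjamini-Hochberg adjustment over all genes and a threshold of 0.05. Tissue differences used limma (3.58.1; voom with quality weights per tissue). DESeq2 (1.42.0) was an alternative, as were other size factors, filters, call rules, a replicate block and leaving out each library. RPKM used exon lengths of GENCODE M21. The test was checked on simulated counts. Total counts ranged from 24876074 to 45300263 per library, and p-values cover the spread between libraries only.

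All 31 members are named. Values in every library are given for *Acaa2*, *Cpt1a*, *Etfa* and *Etfb*, for *Ppara* and *Ppargc1b*, and for each member past the threshold with an absolute log2 fold change above 1 in Vehicle vs WT or Combo vs Vehicle of either tissue. From other lists up to 4 genes per comparison could be named, by fold change. The members and lists were chosen with earlier results of these data known. No set test was run.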

Additional observations from a re-analysis of the deposited data

Results flagged for a closer look

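These members were singled out because their response in ATMs differed from that in BM by the test of the difference itself, in limma over all genes in both tables. The values are the log2 fold change in ATMs minus that in BM as that joint limma model estimated both, and can depart from the difference of the edgeR fold changes. For Vehicle vs WT, the response was lower in ATMs for *Acsl1* -2.0, *Acsl4* -1.03, *Cpt1a* -1.29, *Crat* -1.43, *Acadvl* -0.88, *Acadm* -0.75, *Hadh* -1.13, *Acaa2* -1.83, *Eci2* -0.58, *Etfa* -0.41, *Etfb* -0.74, *Etfdh* -0.89, *Ehhadh* -2.06, *Hsd17b4* -1.12 and *Ppargc1b* -1.36. It was higher in ATMs for *Acsl5* 0.59. The adjusted p ran from 6.5e-21 to 0.0468, the highest for *Ppargc1b*, which did not pass in 1 edgeR fit of the 30 libraries (adjusted p = 0.229).

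For Combo vs Vehicle, the response was higher in ATMs for *Cpt1a* 0.71, *Slc25a20* 0.55, *Crat* 0.58, *Acadvl* 0.82, *Acadl* 0.31, *Acadm* 0.88, *Acads* 0.59, *Echs1* 0.34, *Hadh* 1.07, *Hadhb* 0.31, *Acaa2* 1.64, *Eci2* 0.33, *Etfa* 0.89, *Etfb* 0.58, *Etfdh* 0.66, *Hsd17b4* 0.76 and *Ppargc1b* 1.58. It was lower in ATMs for *Acsl1* -0.57, *Acsl3* -0.82, *Cpt2* -0.96 and *Acox2* -9.39. The adjusted p ran from 1.17e-16 to 0.0285, the highest for *Eci2*. *Ppargc1b* and *Hadhb* did not pass in the edgeR fit (adjusted p = 0.116 and 0.0664), and the value of *Acox2* rests on groups with 0 counts, so its size depends on the prior count and is no measure of the change. Of all genes, 53% differed between the tissues in Vehicle vs WT and 52.6% in Combo vs Vehicle, in either direction. The 16 of 30 members in Vehicle vs WT were close to that share, so such a difference is not particular to the members. The shares of all genes in each direction are not given, and the median difference over all genes was -0.10 and 0.18. No group had the 4 libraries needed to flag single libraries far from the rest for a member. The comparison of library pairs given above did set apart the first WT library of BM.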

How the results depend on the processing

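No member with printed library values that passed in Vehicle vs WT or Combo vs Vehicle changed direction under any alternative. Small differences in the mean level of the members did, as given below. The counts of members that passed kept within 1.5 times of the reported ones under other size factors, other low-count filters, a fit of only the libraries compared, DESeq2 and the replicate block. With an absolute log2 fold change above 1 required as well, the counts in BM were 3 for Vehicle vs WT, 2, 3 and 2 for the GLP-1R agonist, the antibody and Combo vs Vehicle, 1, 1 and 1 for the same groups vs WT, 1 and 1 for Combo vs the GLP-1R agonist and vs the antibody, 0 between the single agents (21 without this limit by edgeR, and none of these exceeded the limit) and 4 for non-additivity. In ATMs they were 13, then 6, 9 and 4, then 2, 4 and 5, then 1 and 1, then 0 (15 without the limit) and 9 in the same order, and 9 and 4 for the tissue differences of Vehicle vs WT and Combo vs Vehicle. The lower counts follow from the limit itself. Of all genes, 19.5% passed with this limit in Vehicle vs WT of BM. For the other counts with this limit the share over all genes is not given, so they are no result about the members. The 15 between the single agents in ATMs were 3 higher and 12 lower with the GLP-1R agonist, also without a share over all genes. In 1 edgeR fit of the 30 libraries the tissue differences numbered 16 and 19, without *Ppargc1b* in Vehicle vs WT and without *Ppargc1b* and *Hadhb* in Combo vs Vehicle, and with *Acads* gained in Vehicle vs WT.

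The mean level of the members moved more. With the median over members the difference in BM was -0.11 for Vehicle vs WT, 0.087 and 0.16 for the GLP-1R agonist and Combo vs Vehicle, and -0.019, -0.050 and 0.050 for the GLP-1R agonist, the antibody and Combo vs WT, and in ATMs -0.61 for Vehicle vs WT and 0.48 for Combo vs Vehicle. With only members of at least 10 counts on average it was -0.68, 0.45 and 0.41 in ATMs for Vehicle vs WT and for the GLP-1R agonist and Combo vs Vehicle. With all members and libraries, the mean gave 0.018 and 0.025 for the GLP-1R agonist and the antibody vs WT in BM. These small differences changed sign with the median. In ATMs the antibody vs WT gave 0.0099, and -0.032 to 0.034 with each library left out in turn. The cause of these shifts was not tested. Leaving out each library in turn gave 0.020 to 0.074 for the GLP-1R agonist vs Vehicle, 0.26 to 0.32 for Combo vs Vehicle and -0.014 to 0.040 for the GLP-1R agonist vs WT in BM, the lowest without the second GLP-1R agonist library for the first and last. Leave-one-out counts ran from 5 to 9 for Combo vs the antibody in ATMs, with 5 without the second Combo library, and from 15 to 18 and 18 to 21 for the tissue differences, the last 2 being alternatives chosen after seeing the data.

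Libraries with the same number did not deviate together in all pairs of any comparison (in BM Vehicle vs WT the correlations were 0.14, 0.026 and 0.077). No pairing by number was therefore assumed, though this check cannot exclude it. With the replicate block, 24 members passed in BM and 23 in ATMs in Vehicle vs WT, and *Acox2* in ATMs lost its call (adjusted p = 0.0806). The spread between ATM libraries limits what can be called there.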
